A study of Homo sapiens with 6 samples.

Results

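The 10 genes described here encode enzymes of glycolysis and were taken by name: GPI, ALDOA, TPI1, GAPDH, PGK1, PGAM1, ENO1, PKM, LDHA and LDHB. They are 10 of the 12472 human genes that could be named in the 5 count matrices. Of their 145 annotated transcripts, 79 were listed there, out of 46484 human transcripts in all.

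Glycolysis turns glucose into pyruvate in the cytosol and yields ATP and NADH without oxygen. GPI, ALDOA and TPI1 prepare the sugar phosphates, GAPDH makes the step that reduces NAD, PGK1 and PKM make the steps that yield ATP, and PGAM1 and ENO1 stand between them. LDHA and LDHB, the subunits of lactate dehydrogenase, interconvert pyruvate and lactate. Proliferating and malignant cells are known for high glycolysis, and GAPDH is among the most abundant mRNAs of most cells.

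Human and mouse cells, labelled JJN3 and 5TGMG1 (5TGM1 in the study's text) and described as myeloma lines, were mixed and captured individually, and their full-length cDNA was read with nanopore sequencing. The Drop-seq libraries were made with barcoded beads on the DolomiteBio Nadia system, the first with 25 PCR cycles, 1000 labelled cells, the LSK-109 ligation kit and a PromethION, and the others with 30 or 35 cycles, 500 labelled cells and the LSK-114 kit. The 10X Chromium libraries carried 30 or 35 cycles, 2000 labelled cells and the LSK-114 kit. A sixth sample, Drop-seq at 25 cycles with 1000 labelled cells on a MinION, gave read numbers and no gene counts. The labels name no treatment other than the cycle number and no clone, passage or mixing ratio. Each group held 1 library, so no difference was tested between groups, and a 2-fold rule of size was used in place of a test. All intervals are exact 95% intervals that cover counting error only. Values given for all 5 libraries follow the order of Drop-seq with 25, 30 and 35 cycles and then 10X with 30 and 35.

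Barcodes were ranked by their counts and taken as cells down to the labelled number. A cell with 90% or more of its counts on human transcripts was called human, and a cell with 10% or less was called mouse. Human cells numbered 251, 166, 165, 1006 and 911. Their median depth was 271, 243, 352, 118 and 171 counts. Stored values began at 1 for Drop-seq at 25 cycles, at 3 for the rest of Drop-seq and at 2 for 10X, so that lower values were missing from all but the first. The human cells of the platforms did not carry the same marker genes, although the labels give 1 human line. The study's text also names Jurkat, a T cell line, for human cells mixed with the mouse line, and which line each library held was not tested. All 10 plasma cell markers and 0 of 11 T cell markers had counts in 10X, where the plasma cell list summed to 6650 and 4275 counts per 1000000 human counts (CPM). In Drop-seq, 10, 6 and 7 of the T cell markers had counts, at 3063 to 3560 CPM in sum, led by CD3G and CD1E. The only plasma cell marker with counts there was MZB1, at 74.5 to 130 CPM. Platform and human cells therefore cannot be told apart in any comparison of Drop-seq with 10X below.

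The 10 enzyme genes together held 1389, 751, 1045, 740 and 1201 counts in the human cells. That was 1.21% (1.14 to 1.27%), 1.12% (1.04 to 1.20%) and 1.12% (1.05 to 1.19%) of all human counts in Drop-seq. In 10X it was 0.457% (0.425 to 0.491%) and 0.603% (0.569 to 0.638%). The Drop-seq shares overlapped, whereas both 10X shares lay below them and apart from each other. The same molecule was often counted on several transcripts of its gene, since the sum over transcripts was 2.90 to 3.46 times the count of each cell's most abundant transcript, against 1.47 to 2.13 times over all human genes. The intervals of summed counts are therefore too narrow. Counted by the most abundant transcript of each cell only, the members held 0.743, 0.787 and 0.765% of human counts in Drop-seq and 0.218 and 0.282% in 10X.

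Levels between genes were compared on the count of the most abundant transcript per cell, as CPM per kilobase of the gene's leading transcript. GAPDH, which oxidises glyceraldehyde 3-phosphate (chr12:6534512-6538374, hg38, plus strand), stood first in every library. Its level on this scale was 2926, 1609, 1825, 938 and 1528. No other member's interval reached that of GAPDH in any library. By summed counts GAPDH held 834, 256, 409, 482 and 927 counts in the same order, and it ranked 12th to 36th among all human genes with counts. By the most abundant transcript its rank was lower, at 22, 55, 39, 78 and 47.

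**Figure D1:**
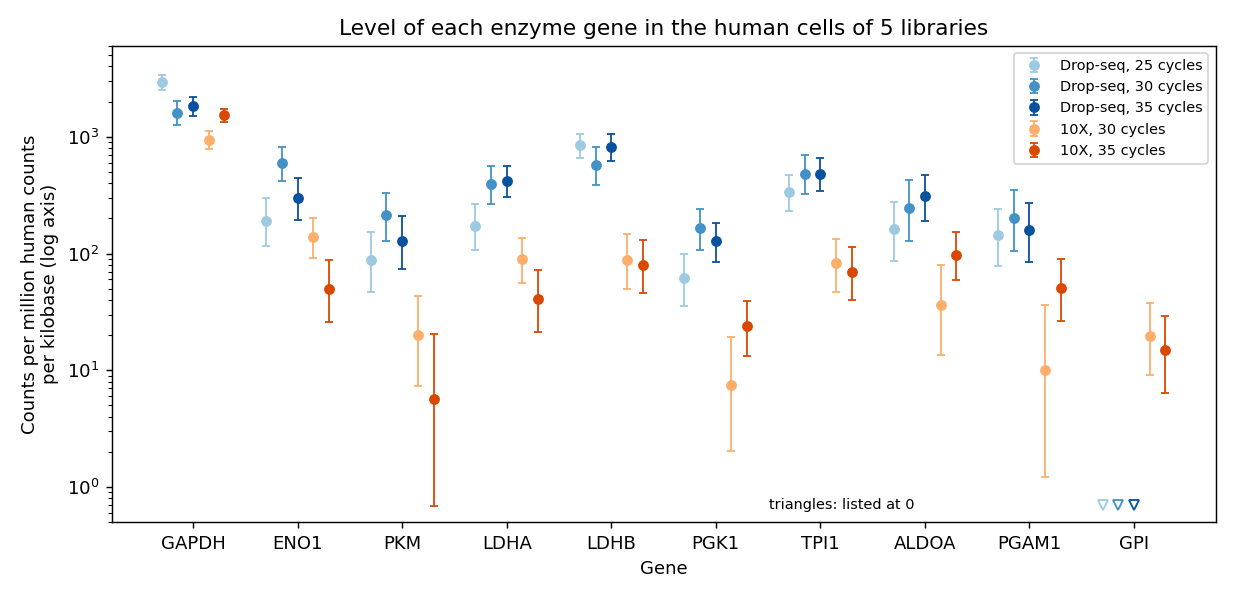
Level of the 10 enzyme genes in the human cells of each library, as the count of each cell's most abundant transcript in CPM per kilobase (log axis), with exact 95% counting intervals. GAPDH lay between 938 and 2926 and above every other gene in each library, and GPI was listed at 0 in the 3 Drop-seq libraries (open triangles).

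LDHB, the lactate dehydrogenase subunit of aerobic tissues (chr12:21635342-21757857, minus strand), held 228, 93 and 183 summed counts in Drop-seq and 45 and 48 in 10X. Per kilobase it was second in Drop-seq at 25 and 35 cycles, at 843 and 812 CPM, and it lay apart from the next gene at 25 cycles only. LDHA, the subunit of muscle and of many tumours (chr11:18394560-18408425, plus strand), held 41, 56 and 71 counts in Drop-seq and 27 and 16 in 10X. LDHB thus had more summed counts than LDHA in all 5 libraries, but their levels per kilobase overlapped in all except Drop-seq at 25 and 35 cycles. Before division by length, those at 35 cycles overlapped as well, at 1249 and 942 CPM. By each cell's most abundant transcript LDHB had 70, 29 and 57 counts in Drop-seq, against 21, 29 and 43 for LDHA. In 10X it had 15 and 16 against 22 and 12, so on this basis LDHB did not lead at 30 cycles on either platform.

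ENO1, the enolase that makes phosphoenolpyruvate (chr1:8861000-8879190, minus strand), held 58, 105 and 80 counts in Drop-seq and 72 and 38 in 10X. It stood second per kilobase at 30 cycles on both platforms, at 596 CPM in Drop-seq and 138 CPM in 10X, and at places 4 to 6 in the other libraries. Its interval overlapped that of the next gene each time. TPI1, which interconverts the triose phosphates (chr12:6867119-6870948, plus strand), held 107, 92 and 136 counts in Drop-seq and 50 and 48 in 10X.

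ALDOA, the aldolase that cleaves fructose 1,6-bisphosphate (chr16:30064164-30070457, plus strand), held 41, 25 and 43 counts in Drop-seq and 18 and 52 in 10X. PGK1 (chrX:77910739-78129295, plus strand) held 27, 60 and 69 counts in Drop-seq and 10 and 32 in 10X, and it stood last per kilobase among the members with counts in 4 of the 5 libraries, with an interval that overlapped that of the gene before it. That place rests on the division by its leading transcript of 4812 bases. Before the division it lay above PGAM1 in each of these libraries, with overlapping intervals. In Drop-seq at 30 cycles, for example, it was at 790 against 365 CPM. PGAM1, which moves the phosphate of 3-phosphoglycerate (chr10:97426191-97433444, plus strand), held 14, 12 and 13 counts in Drop-seq and 2 and 12 in 10X. Below the leading gene or genes, each neighbour in the order overlapped the next in every library.

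GPI, which converts glucose 6-phosphate to fructose 6-phosphate (chr19:34359480-34402413, plus strand), held 24 and 22 counts in 10X, in 4 cells of each library. It was listed at 0 in the human cells of all 3 Drop-seq libraries, but this rests on which barcodes are taken as cells. In the 25-cycle library, whose values began at 1, a count of 0 allows up to 26.0 CPM (3 counts of the total), against 148 and 110 CPM in 10X. With values below 3 left out before cells were ranked, the same library held 31 GPI counts in 2 of 306 human cells, or 323 CPM, and 10X held 6 and 0 counts, so that the direction turned. In the other Drop-seq libraries counts below 3 were not stored. Over all barcodes of Drop-seq GPI had 143, 28 and 46 counts.

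PKM encodes pyruvate kinase, and its transcripts hold either exon 9, which gives PKM1, or exon 10, which gives PKM2 (chr15:72199029-72231819, minus strand). PKM1 is known from muscle and brain and PKM2 from proliferating cells and tumours. The exons are 167 bases each and are the same at 105 positions (62.9%), so a read that covers them can be told apart at 62 bases. Both are printed from hg38, minus strand, because the PKM counts turn on them, with the bases that differ in capitals. Exon 9 lies at chr15:72203022-72203188 and exon 10 at chr15:72202454-72202620.
PKM exon 9: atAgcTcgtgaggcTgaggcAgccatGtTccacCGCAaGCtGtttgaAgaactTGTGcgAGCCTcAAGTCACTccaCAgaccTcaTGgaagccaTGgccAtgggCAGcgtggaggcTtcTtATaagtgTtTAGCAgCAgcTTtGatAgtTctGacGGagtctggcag
PKM exon 10: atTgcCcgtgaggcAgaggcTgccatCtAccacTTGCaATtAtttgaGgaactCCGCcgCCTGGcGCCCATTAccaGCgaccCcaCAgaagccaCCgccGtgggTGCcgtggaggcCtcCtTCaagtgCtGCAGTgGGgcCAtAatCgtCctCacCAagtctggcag

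PKM held 39, 52, 41, 10 and 6 counts. In Drop-seq, 29, 37 and 32 of these lay on transcripts with exon 9, and 5, 7 and 3 on transcripts with exon 10. Neither 10X library had a count on an exon 9 transcript (0 and 0), and exon 10 transcripts had 8 and 6. The exon 10 share of the counts that carried either exon was 14.7% (4.95 to 31.1%), 15.9% (6.64 to 30.1%) and 8.57% (1.80 to 23.1%) in Drop-seq, and 100% (63.1 to 100%) and 100% (54.1 to 100%) in 10X. The intervals of the platforms did not overlap, but the counts came from 4 cells in each Drop-seq library and from 2 and 1 cells in 10X. Over every barcode with at least 90% human counts the exon 10 share was 29.2, 12.1 and 19.8% in Drop-seq, against 77.8 and 83.3% in 10X. The leading transcripts were ENST00000319622 and ENST00000565184, both with exon 9, with 48 and 47 counts over the 5 libraries. They had equal counts in 4 of 4, 3 of 4 and 4 of 4 PKM cells of Drop-seq. The exon 9 counts thus likely hold the same molecules more than once. That would make the exon 10 share in Drop-seq too low and its intervals too narrow. In 10X at 35 cycles all 6 exon 10 counts lay in 1 cell, as 2 counts on each of 3 transcripts. At 30 cycles 1 of 6 pairs of PKM transcripts had equal counts in every cell. The 10X intervals are thus likely too narrow as well, and the gap between the platforms' intervals rests on them. As above, platform and human cells cannot be told apart here, and the part of each was not tested.

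**Figure D2:**
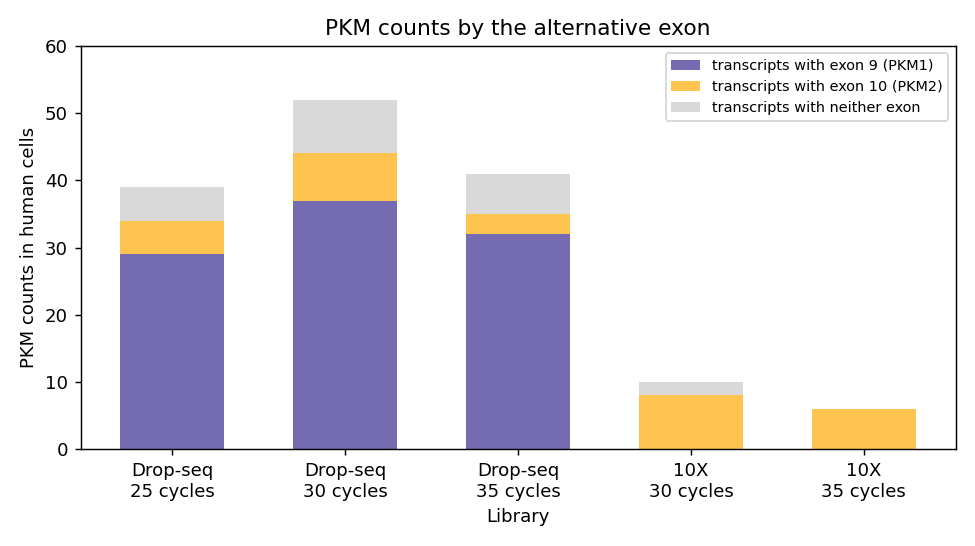
PKM counts in human cells by library, split by whether the transcript holds exon 9, exon 10 or neither. Exon 9 transcripts held 29, 37 and 32 counts in Drop-seq and 0 in both 10X libraries, where exon 10 transcripts held 8 and 6.

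The other genes showed how far counts on transcripts overlapped. GAPDH counts lay mainly on 4 coding transcripts that held 19.2 to 27.6% of the gene each, led by ENST00000229239 and ENST00000396861. ENST00000229239 held 24.3, 23.8 and 24.2% of GAPDH counts in Drop-seq and 27.6% in both 10X libraries. These shares overlapped in their intervals across all libraries. Another coding transcript, ENST00000619601, held 7.07% (5.43 to 9.03%), 10.2% (6.74 to 14.5%) and 8.07% (5.62 to 11.1%) of GAPDH counts in Drop-seq, against 0.415% (0.0503 to 1.49%) and 1.73% (0.990 to 2.79%) in 10X, and its intervals did not overlap between the platforms. All GAPDH cells held at least 2 transcripts, and the leading pair had equal counts in 49 of 52, 10 of 12 and 16 of 19 cells in Drop-seq and in all 63 and 116 cells in 10X. TPI1's leading pair, ENST00000229270 and ENST00000613953, had equal counts in every cell that held the gene, in all 5 libraries. The count of such a pair is thus close to 1 measurement and not a ratio of isoforms.

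For ENO1 the leading pair were ENST00000646370, annotated as subject to nonsense mediated decay, and the coding ENST00000234590, with 100 and 99 counts over the 5 libraries. LDHA counts in Drop-seq lay on ENST00000422447 and ENST00000379412, apart from 6 of 41 counts on ENST00000227157 at 25 cycles, and the first held 51.2, 51.8 and 60.6% of the gene. In 10X at 30 cycles that transcript held 25.9% (11.1 to 46.3%), and the retained-intron transcript ENST00000538451 held 33.3% (16.5 to 54.0%) of 27 counts. At 35 cycles they held 50.0% (24.7 to 75.3%) and 12.5% (1.55 to 38.3%) of 16 counts, with intervals that overlapped those at 30 cycles. LDHB's leading pair, ENST00000396076 and ENST00000350669, held 181 and 178 counts over the 5 libraries, and PGK1's, ENST00000373316 and ENST00000644362, held 89 and 66. ALDOA's pair, ENST00000643777 and ENST00000642816, held 52 and 51, and PGAM1 had counts on 1 transcript, ENST00000334828, with 53. GPI's leading pair were the coding ENST00000356487 with 11 counts and the retained-intron ENST00000586077, a single exon, with 10. Protein-coding transcripts held 88.3 to 96.3% of the members' counts, against 75.1 to 80.1% of all named human counts.

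The counts of these genes came from few cells. Any of the 10 genes had an entry in 86 of 251 (34.3%, 28.4 to 40.5%), 36 of 166 (21.7%, 15.7 to 28.7%) and 41 of 165 (24.8%, 18.5 to 32.2%) human cells of the Drop-seq libraries. In 10X it was 105 of 1006 (10.4%, 8.62 to 12.5%) and 157 of 911 (17.2%, 14.8 to 19.8%). Mouse cells, which should lack human transcripts, had an entry in 30 of 590 (5.08%), 1 of 291 and 1 of 309 cells of Drop-seq and in 0 of 806 and 2 of 881 cells of 10X, at median depths of 282.5, 278, 417, 117 and 171. The human share exceeded the mouse share in every library. Cells were called human or mouse by their human counts, the members among them, so this difference is no independent support. A count of 0 allows up to 0.372% of the mouse cells of 10X at 30 cycles, taken as 3 cells of the total, for values of 2 and above, and the exact interval reaches 0.457%.

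**Figure D3:**
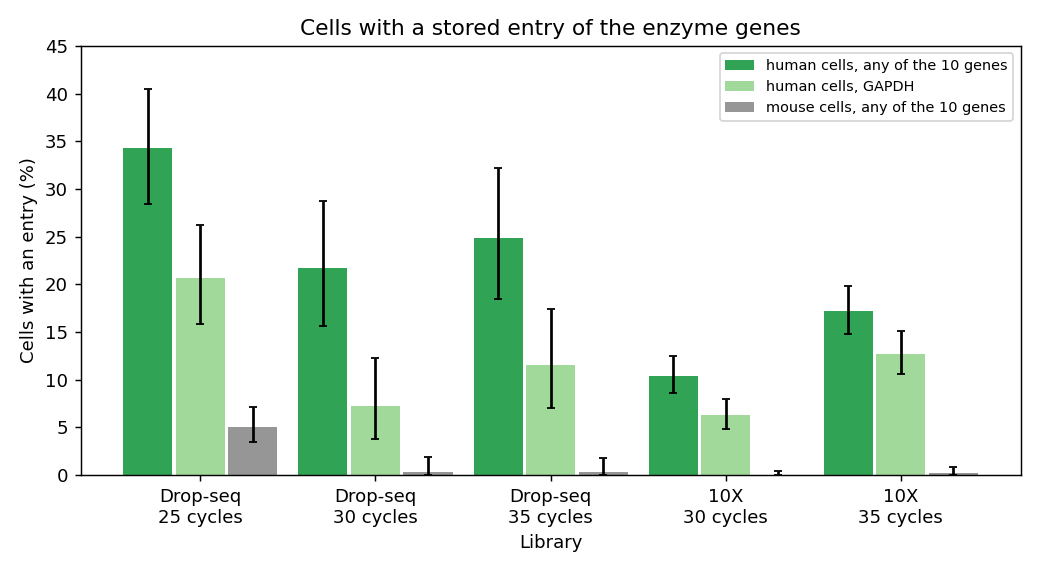
Share of human cells with a stored entry of any of the 10 genes or of GAPDH, and of mouse cells with an entry of any of the 10, by library, with exact 95% intervals. Human cells with any member range from 10.4 to 34.3%, and the mouse cells of the 25-cycle library stand highest among the mouse bars at 5.08%.

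In the 25-cycle library the mouse cells held 7.71% of the members' counts found in human and mouse cells together, below the 11.8% of all human counts, but 23.7% for ENO1 and 30.4% for PKM. In the other libraries the mouse cells held at most 1.18% of the members' counts. The 25-cycle level of ENO1 and PKM is therefore nearest to this background. The share of cells followed depth. Among the deepest 25% of the human cells, 55.6, 40.5, 46.3, 17.9 and 34.2% had an entry, against 12.7, 14.3, 19.0, 8.73 and 8.77% among the shallowest 25%. Thinned to 100 counts a cell, the expected shares were 26.8, 19.5 and 21.8% in Drop-seq, against 10.1 and 15.4% in 10X, with 348 cells of 10X at 30 cycles left out as too shallow. The order of the libraries was the same with and without thinning, which does not even out the smallest stored values. With values below 3 left out, the shares were 13.1, 21.7, 24.8, 1.40 and 2.08%. The 25-cycle library then stood below the other Drop-seq libraries.

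GAPDH alone had an entry in 52, 12 and 19 human cells of Drop-seq (20.7, 7.23 and 11.5%) and in 63 and 116 of 10X (6.26 and 12.7%). A GAPDH cell of 10X held a median of 8 counts at either cycle number, which is the smallest stored value on each of 4 transcripts, whereas one of Drop-seq held a median of 7.5, 20 and 16 and a highest value of 118, 49 and 60. Few cells held several members. Cells with 2 or more of the 10 genes numbered 23, 7 and 9 in Drop-seq, against 8 and 12 in 10X, and none held more than 4. GAPDH was absent from 34, 24 and 22 of the Drop-seq cells with another member and from 42 and 41 of those of 10X.

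The 10 richest cells held 51.6, 51.9 and 53.5% of the members' counts in Drop-seq, but 14.1, 18.6 and 20.5% of all human counts. In 10X they held 19.2 and 14.1% of the members' counts and 1.65 and 3.28% of all human counts. These cells were picked by their member counts, so the higher member share follows from the choice. The 10 cells also made up a larger part of the 251, 166 or 165 human cells of Drop-seq than of the 1006 or 911 of 10X. In Drop-seq at 30 cycles the cells with TPI1, ALDOA, PGAM1 or LDHA were deep, but they numbered only 5, 3, 3 and 4. Their median depths were 1581, 2348, 1643 and 1366 counts, against 238 to 240.5 for the cells without them. Those with ENO1 or PKM were not deep, at 233 and 251.5 counts against 243. Those with LDHB, GAPDH or PGK1 lay between, at 367, 547.5 and 764. A single cell held 115 of the 228 LDHB counts of the 25-cycle library (50.4%). Gene levels in Drop-seq therefore rest on a handful of cells, and their counting intervals do not cover the spread between cells.

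**Figure D4:**
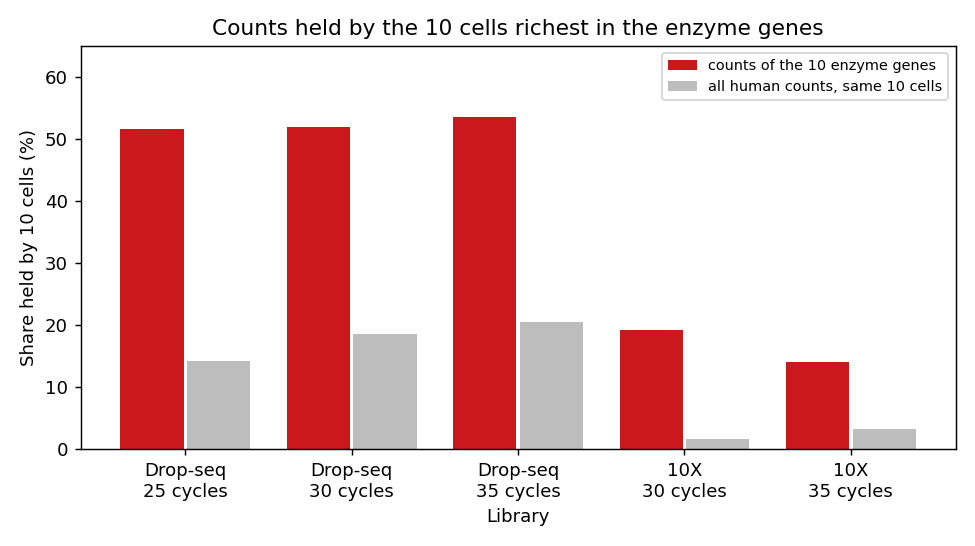
Share of the enzyme genes' counts held by the 10 human cells richest in them, and the share of all human counts in the same 10 cells, by library. The enzyme share is 51.6 to 53.5% in Drop-seq and 14.1 to 19.2% in 10X. The cells were picked by these counts, so that it lies above the share of all human counts follows from the choice.

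The 30- and 35-cycle libraries address whether added PCR changes the counts of the same captured cells. A gene was compared when both libraries together held at least 100 summed counts, and its log2 ratio was taken on CPM with a pseudocount of 0.5 counts. In 10X, 2 members could be compared. GAPDH went from 2976 to 4651 CPM, a log2 ratio of 0.64 (0.48 to 0.81), and stayed under 2-fold. ENO1 went from 445 to 191 CPM, a log2 ratio of -1.21 (-1.83 to -0.63), and was the 1 member past 2-fold. Of all 391 genes compared, 19.9% were 2-fold or more lower and 10.2% higher, with a median log2 ratio of -0.19. With 1 of 2 members past 2-fold, nothing was read as particular to them. ENO1 counts came from 13 cells at 30 cycles and 6 at 35, with a median of 6 counts a cell in both. It stayed lower under all settings, but did not reach 2-fold under the following. The ratio was -0.86 (-1.25 to -0.47) over every human barcode. The interval included 0 among barcodes with at least 100 counts (-0.42, -0.95 to 0.13) and with the number of cells halved (-0.50, -1.17 to 0.15). With values below 3 left out it included 0 as well (-0.85, -2.13 to 0.43).

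The members with fewer counts in 10X did not move in 1 direction. PGK1 (10 and 32 counts), ALDOA (18 and 52) and PGAM1 (2 and 12) had log2 ratios of 1.33 (0.32 to 2.57), 1.21 (0.43 to 2.09) and 2.02 (0.12 to 5.49). The ratio of ALDOA depended on the cells, at 0.35 (-0.53 to 1.29) among barcodes human in both libraries and 3.75 (2.14 to 7.14) among those with at least 100 counts. LDHA had -1.04 (-2.04 to -0.11), and the intervals of PKM, LDHB, TPI1 and GPI included 0. None of the 4 GAPDH transcripts that could be compared reached 2-fold (0.58 to 0.64), where 7.61% of 381 transcripts were higher and 20.5% lower. All members summed gave 0.40 (0.27 to 0.53), and 0.37 (0.13 to 0.61) by the most abundant transcript. With values below 3 left out, the summed ratio was -0.0801 on 144 and 246 counts, so its direction turned with the entries of 2 and the cells chosen without them.

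In Drop-seq, 6 members could be compared and 0 of them reached 2-fold, where 0.987% of 304 genes were higher and 0.987% lower. GAPDH went from 3813 to 4374 CPM, a log2 ratio of 0.20 (-0.03 to 0.43). ENO1 went from 1564 to 856 CPM, at -0.87 (-1.31 to -0.44), and only 2.63% of the genes compared lay below it. LDHB went from 1385 to 1957 CPM, at 0.50 (0.13 to 0.87), but at -0.17 (-0.57 to 0.24) with transcripts of identical counts taken once. Identical transcripts were found in each library alone. LDHB had 0 of 10 such pairs at 30 cycles and 2 of 10 at 35, so its counts were dropped at 35 cycles only. By the most abundant transcript its ratio was 0.49 (-0.17 to 1.20). The intervals of LDHA (-0.14), PGK1 (-0.28) and TPI1 (0.08) included 0, and all members summed gave -0.00 (-0.14 to 0.14). Of the members with fewer counts, PKM (52 and 41) had a log2 ratio of -0.82 (-1.45 to -0.20) and of -0.0579 over every human barcode, and the intervals of ALDOA (0.29) and PGAM1 (-0.37) included 0. The 4 GAPDH transcripts lay at 0.15 to 0.28, and 0% of 243 transcripts were 2-fold or more higher or lower. ENO1 was thus lower at 35 cycles on both platforms, from 7 and 5 Drop-seq cells. The difference between the platforms' changes was not tested.

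**Figure D5:**
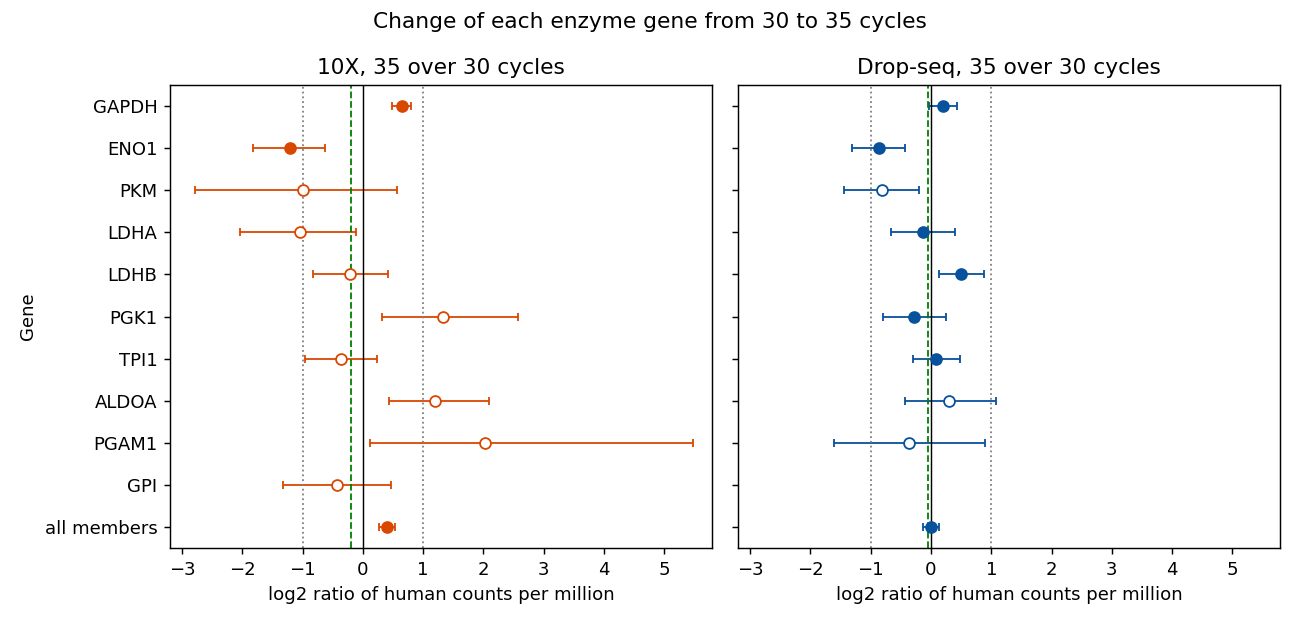
Log2 ratio of human CPM at 35 over 30 cycles for each enzyme gene in 10X (left) and Drop-seq (right), with exact 95% counting intervals. Filled points had at least 100 counts over both libraries, the dotted lines mark 2-fold and the dashed line the median over all genes compared. ENO1 lies at -1.21 and -0.87, and GAPDH at 0.64 and 0.20.

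Barcodes stored in both libraries of a pair allow the same cells to be followed. In Drop-seq, 145 barcodes were human at both 30 and 35 cycles, and 42 of 46 gene entries of the members at 30 cycles were stored again at 35 (91.3%, 79.2 to 97.6%), near the 87.3% of all named human genes. In 10X, 722 barcodes were human in both, and 18 of 97 entries were stored again (18.6%, 11.4 to 27.7%), below the 29.5% of all genes. GAPDH had entries in 53 and 95 of these 10X cells and in both libraries in 16. ENO1 had entries in 11 and 6 of them and in both libraries in 0. In Drop-seq, ENO1 was stored in 6 and 5 cells and in both libraries in 5, where it was lower at 35 cycles in 4 and higher in 1. Its CPM in the shared cells went from 1494 to 897, and that of GAPDH from 3983 to 3914.

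With values below 3 left out, 135 stored barcodes were human in Drop-seq at both 25 and 30 cycles. In them the members held 11028 and 11573 CPM. GAPDH was higher at 25 cycles (6327 and 4319 CPM), and ENO1 was higher at 30 cycles (351 and 1670 CPM), on 24 and 99 counts. The ligation kit and the labelled number of cells also differed between these libraries, and the labels give the instrument of the 25-cycle library only, so these differences cannot be told apart from those of the cycle number.

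Comparing the platforms at 30 cycles, 4 members had enough counts and 3 were 2-fold or more higher in Drop-seq. ENO1 was at 1564 against 445 CPM (log2 ratio 1.81, 1.37 to 2.27), LDHB at 1385 against 278 CPM (2.31, 1.79 to 2.86) and TPI1 at 1370 against 309 CPM (2.14, 1.64 to 2.68). ENO1 did not reach 2-fold when scaled to all human and mouse counts in the cells (0.83, 0.39 to 1.28) or with the number of cells halved (0.62, -0.09 to 1.29), whereas LDHB and TPI1 did. GAPDH was at 3813 against 2976 CPM (0.36, 0.13 to 0.58) and turned to -0.62 when scaled to all counts, but passed 2-fold, at 1.35 (0.99 to 1.74), with values below 3 left out. Scaling to all counts shifts every gene of the comparison by the same amount, and so the median over all genes. Human and mouse cells numbered 166 and 291 in Drop-seq, against 1006 and 806 in 10X. The background was wide: 36.1% of 288 genes were 2-fold or more higher and 46.9% lower in Drop-seq, with a median log2 ratio of -0.60. The members summed were 1.29 (1.14 to 1.44) higher, at 11185 against 4569 CPM, and 0.31 when scaled to all counts. PKM and PGK1, with 52 and 60 counts in Drop-seq against 10 each in 10X, had too few counts for the comparison. The T cell and plasma cell markers and the smallest stored value moved with this comparison, and their part in it was not tested.

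Other genes of glucose use were sparse in the same cells. Of 25 further glycolysis genes, 3, 1 and 2 had counts in Drop-seq and 6 and 4 in 10X, and 0 reached 100 counts over a pair. ENO2, the neuronal enolase, led in Drop-seq with 15, 18 and 18 counts, and ADPGK, an ADP-dependent glucokinase, led in 10X with 10 and 20. Among 6 glucose and lactate transport genes BSG, the chaperone of lactate transporters, held 12, 28 and 23 counts in Drop-seq and 24 and 4 in 10X, and SLC16A7 held 40 and 14 in 10X. Of 10 genes that bring pyruvate into mitochondria, PDHB, a subunit of pyruvate dehydrogenase, was the 1 gene that could be compared, at 62 and 65 counts in Drop-seq (log2 ratio -0.41, -0.93 to 0.12). Of 7 pentose phosphate genes TKT, transketolase, led in Drop-seq with 55, 24 and 62 counts. Annotated pseudogenes of the members, 104 in all, held 0 counts in Drop-seq and 2 and 5 counts in 10X.

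The genes whose levels over the 5 libraries lay nearest to those of the summed members were found among the 32 other genes with at least 100 counts in each library, by Euclidean distance of centred log2 CPM. They were RPLP0 (0.23), RPS3 (0.40), RPS4X (0.47), RPL8 (0.65) and H2AZ1 (0.67). RPLP0 held 5848, 6657 and 6385 CPM in Drop-seq and 2402 and 3216 CPM in 10X.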

How the data were processed

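Single-cell RNA was counted in 5 libraries of mixed cells labelled JJN3 and 5TGMG1. The authors deposited raw UMI counts, as whole numbers for each transcript in each barcode and without normalization. Their methods give base calling with Guppy, a search for barcode and UMI next to the polyA stretch, and mapping to human (hg38) and mouse (mm10) transcripts with minimap2. 10X UMIs were counted with UMI-tools. Drop-seq UMIs were counted with UMI-tools as monomers or with a greedy script as homotrimers, and which of these made the deposited files is not stated. Barcodes have 10 bases in every matrix, so different cells could share one. The filters behind the smallest stored values are not stated.

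Transcripts were matched without version to GENCODE release 44, a later release than the authors used. Species came from the identifier prefix. Mixed cells were left out, and no doublet caller was run. Transcript counts were summed per gene over human cells and divided by their human counts. Shares have Clopper-Pearson intervals and ratios exact conditional binomial intervals at 95%, with a pseudocount of 0.5 and a minimum of 100 counts over both libraries. On simulated counts, 156 of 156 genes changed 4-fold and 0 of 210 unchanged genes were called in 10X, and 111 of 111 and 0 of 163 in Drop-seq. The simulated totals were drawn independently for each gene. They left out molecules counted on several transcripts and counts held by few cells, so the rate of false calls in the real counts was not tested. The 10 genes and all lists were chosen with earlier results of these data known. Named were the members, the 2 leading transcripts of each, other glycolysis genes with 100 counts, and the 5 nearest profiles. Exon sequences came from hg38. The sixth sample was not used here. Alternatives changed the barcodes taken as cells, the purity, the transcripts counted, the scaling, the pseudocount and the minimum. Scripts ran under Python 3.11.15, with pandas 2.3.3 for tables, scipy 1.17.1 for intervals, numpy 2.4.6 and matplotlib 3.10.9.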

Additional observations from a re-analysis of the deposited data

Results flagged for a closer look

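The change from 30 to 35 cycles had opposite signs in the platforms for 4 genes and for the sum, and the difference was not tested. The log2 ratios in 10X and Drop-seq were -0.21 and 0.50 for LDHB, 1.33 and -0.28 for PGK1, -0.36 and 0.0837 for TPI1, 2.02 and -0.37 for PGAM1, and 0.40 and -0.00134 for all members. Both intervals excluded 0 on opposite sides for none of them. With identical transcripts counted once the signs of LDHB were the other way round, at 1.33 (0.50 to 2.30) and -0.17 (-0.57 to 0.24). This setting finds identical transcripts in each library alone. LDHB had 3 of 3 identical pairs in 10X at 30 cycles and 0 of 6 at 35, so counts were dropped on 1 side of the ratio only. By the most abundant transcript its ratios kept their signs, at -0.15 and 0.49, with intervals that included 0. With the cells halved the ratio of LDHB in 10X was 0.30, with an interval that included 0. The signs of TPI1 were the other way round over every human barcode, at 0.49 in 10X and -0.25 in Drop-seq.

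The 10 genes also had counts on barcodes outside the cells, which enter no comparison. These numbered 5696, 701, 1214, 322 and 724 in the library order used above, all above the 3 counts that a count of 0 allows. They were 76.7, 48.0, 53.7, 28.6 and 34.6% of the members' counts, below the 79.9, 56.6, 61.6, 34.9 and 42.0% of all human counts that lay outside the cells.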

How the results depend on the processing

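No result has a replicate, so no library could be left out and libraries could not be paired over replicates. Pairing was by barcode only, for the cells stored in both libraries of a pair. The share of human counts on the members, in the order Drop-seq 25, 30 and 35 and 10X 30 and 35 cycles, moved to 0.743, 0.787, 0.765, 0.218 and 0.282% by the largest transcript in each cell and to 1.02, 0.905, 0.900, 0.412 and 0.532% over every human barcode. Counting identical transcripts once gave 1.27 and 1.22% for Drop-seq at 25 and 30 cycles and 0.357 and 0.476% for 10X, and with coding transcripts only 1.11, 0.987 and 1.01% in Drop-seq and 0.420% in 10X at 30 cycles. Values below 3 left out gave 0.264 and 0.250% in 10X. It was 1.04% at a purity of 95% in Drop-seq at 30 cycles, and 0.406 and 0.421% in 10X at 30 cycles for barcodes of at least 100 counts and for the number of cells halved.

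The share of human cells with an entry went to 1.15, 1.39, 1.35, 2.07 and 2.82% over every human barcode, to 42.9, 32.4, 13.6 and 24.6% with the cells halved (Drop-seq 25 and 35, 10X 30 and 35 cycles), to 13.1, 1.40 and 2.08% with values below 3 left out (Drop-seq 25, both 10X), to 26.8% in Drop-seq at 25 cycles when thinned to 100 counts, and to 21.2, 17.8, 8.43 and 12.8% when thinned to 50 counts (Drop-seq 25 and 35, both 10X).

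The summed log2 ratio at 35 over 30 cycles in 10X was 0.60 for barcodes of at least 100 counts, 0.59 with the cells halved, 0.20 scaled to all counts, 0.59 by the median of ratios, and -0.0801, reversed, with values below 3 left out. Drop-seq over 10X was 1.14 over every human barcode, 2.08 with values below 3 left out, 1.78 with identical transcripts once, 1.85 by the largest transcript, 0.31 scaled to all counts and 1.90 by the median of ratios. With identical transcripts counted once LDHB reversed to -0.17 in Drop-seq and went from -0.21 to 1.33 in 10X. Such transcripts were found in each library alone, and by the largest transcript its ratios were 0.49 and -0.15. GAPDH between platforms reversed to -0.62 scaled to all human and mouse counts, which shifts every gene of the comparison by the same amount. The count of 1 member lower in 10X, ENO1, was 0 under 8 alternatives. In 4 its ratio stayed past 2-fold on too few counts (-1.03 for barcodes human in both libraries, -1.42, -1.89 and -1.43 for coding, identical and largest transcripts), and in the others it was -0.42 (at least 100 counts), -0.50 (cells halved), -0.86 (every human barcode) and -0.85 (values below 3 left out). The count was also 0 with a minimum of 200 counts. ALDOA was the 1 member higher over every human barcode and with a minimum of 50. The 3 members higher in Drop-seq at 30 cycles became 5 over every human barcode, 6 with a minimum of 50, 2 with the cells halved or scaled to all counts, where ENO1 was lost, and 0 with a minimum of 200 or by the largest transcript, where ENO1, LDHB and TPI1 fell under the minimum at ratios of 2.10, 2.67 and 2.53. PKM exon shares stayed within their intervals under every alternative run, none of which changed the transcripts counted. The minimum sets which genes pass, and a change of scaling shifts all genes of a comparison alike. Identical transcripts can be dropped from 1 library of a pair only. What else moved these values was not tested.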
